A study of Mus musculus with 10 samples.

Results

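The genes that let leukocytes attach to and cross the vessel wall were followed in mouse aortae of 2 ages. The set holds 10 genes, chosen by name for their place in leukocyte adhesion, with earlier results of these data known. They are *Icam1*, *Icam2* and *Vcam1*, which encode immunoglobulin-family ligands, *Sele* and *Selp*, which encode E-selectin and P-selectin, *Selplg*, which encodes the P-selectin ligand PSGL-1, and *Itgal*, *Itgam*, *Itgb2* and *Itga4*, which encode integrin subunits. All 10 were among the 55453 gene symbols of the count table, had reads in every library, and were among the 14614 genes with enough reads to be tested. One library was made per aorta from polyadenylated RNA, and the donors were male C57BL/6 mice, with 5 young mice aged 14.5 weeks and 5 old mice aged 92.5 weeks by the labels. The labels name no transgene and no drug, all animals were sacrificed at the same time, and the vessels were perfused with saline and freed of the surrounding fat before RNA was extracted. The whole vessel wall was sequenced, so that a change in the number of cells of a type and a change in RNA per cell cannot be told apart for any gene below.

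A leukocyte that leaves the blood first rolls on selectins, which the endothelium shows on its surface and which bind sugars carried by PSGL-1 and other glycoproteins. Chemokine signals then switch leukocyte integrins into a form that binds ligands of the immunoglobulin family on the endothelium, and the cell stops, spreads and passes through the wall. The integrins pair an alpha with a beta subunit. LFA-1 is made of the products of *Itgal* and *Itgb2* and binds ICAM-1 and ICAM-2, Mac-1 is made of the products of *Itgam* and *Itgb2* and binds ICAM-1 among other ligands, and VLA-4 is made of the products of *Itga4* and *Itgb1* and binds VCAM-1. In arteries, ICAM-1, VCAM-1 and E-selectin are known as targets of the transcription factor NF-kappaB, and ICAM-2 is known as a constitutive endothelial protein.

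Promoter sequence is shown for the members whose transcription start is in the RefSeq promoter table of GRCm38.p6, since NF-kappaB is known to act at the promoters of several of these genes. That table held 5 of the 10 members, 3 of them endothelial and 2 of them integrin subunits. The 160 bases before each start are printed 5′ to 3′ on the strand of the gene, which is the plus strand for all 5, and capitals mark matches to the motifs described after them.
*Icam1*, chr9:21015780-21015939: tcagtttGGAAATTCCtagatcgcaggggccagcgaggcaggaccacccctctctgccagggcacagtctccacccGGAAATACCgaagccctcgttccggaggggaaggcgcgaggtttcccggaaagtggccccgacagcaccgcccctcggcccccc
*Sele*, chr1:164048074-164048233: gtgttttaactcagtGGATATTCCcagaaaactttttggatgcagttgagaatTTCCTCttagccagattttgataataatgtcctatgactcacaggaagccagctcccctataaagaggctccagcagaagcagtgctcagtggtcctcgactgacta
*Selp*, chr1:164115104-164115263: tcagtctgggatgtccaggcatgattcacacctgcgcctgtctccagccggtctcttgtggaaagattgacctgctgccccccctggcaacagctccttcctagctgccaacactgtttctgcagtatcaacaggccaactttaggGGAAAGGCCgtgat
*Itgam*, chr7:128062480-128062639: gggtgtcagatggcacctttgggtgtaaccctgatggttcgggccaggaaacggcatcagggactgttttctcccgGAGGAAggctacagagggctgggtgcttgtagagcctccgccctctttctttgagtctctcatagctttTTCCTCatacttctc
*Itga4*, chr2:79255266-79255425: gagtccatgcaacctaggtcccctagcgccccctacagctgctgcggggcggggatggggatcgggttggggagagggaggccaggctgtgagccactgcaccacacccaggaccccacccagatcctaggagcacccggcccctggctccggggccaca

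Both strands were searched for a kappaB-like motif, GGNNNTTCC, for the core GAGGAA of the myeloid and lymphoid factor PU.1 and for the Ets core GGAAGT. In windows of 300 bases around the start, the kappaB-like letters occurred in 18.5% of 32817 promoters, the PU.1 core in 28.3% and the Ets core in 23.8%, so that a match is common by itself. All 3 endothelial promoters held the kappaB-like letters, *Icam1* at -153 and -84, *Sele* at -145 and *Selp* at -14, where positions count bases from the transcription start and give the first base of the match. The PU.1 core occurred at -84, -15 and 32 in *Itgam*, the alpha subunit of the myeloid integrin Mac-1, and at -107 in *Sele*. *Selp* also held the Ets core at 20. None of the 3 motifs was in the window of *Itga4*.

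On GRCm38, *Sele* (chromosome 1, 164048234 to 164057677) and *Selp* (164115264 to 164150026) lie on the same strand with 57586 bases between them, and *Itgal* (chromosome 7, 127296260 to 127335138) and *Itgam* (128062640 to 128118491) lie on the same strand with 727501 bases between them. *Icam1* lies on chromosome 9 (21015985 to 21028817), *Icam2* on chromosome 11 (106377656 to 106388075), *Vcam1* on chromosome 3 (116109949 to 116129688), *Selplg* on chromosome 5 (113818536 to 113832644), *Itgb2* on chromosome 10 (77530252 to 77565708) and *Itga4* on chromosome 2 (79255426 to 79333123). The annotation places a second gene model, *Gm49368*, on the same strand over 68.67% of the exonic bases of *Itgam*. *Gm49368* itself was listed with 0 to 1 reads, and reads in the shared exons may have been left uncounted, so that the level of *Itgam* is uncertain. The opposite strand of *Itga4* holds exons of *Cerkl* over 8.04% of its exonic bases, which had 53 to 123 reads. For *Icam1* and *Selp*, antisense models cover 11.72% and 14.14% of the exonic bases and had at most 3 reads.

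The libraries held 19640401 to 22886153 reads on genes. In old replicate 2, mitochondrial genes took 11% of the reads, against 4.50 to 6.51% in the other 9 libraries. Old replicate 3 stood apart in its leukocyte marker RNA, with summed normalized counts of 6 pan-leukocyte markers of 3098, against 1310 to 1774 in the other old and 816 to 1297 in the young aortae. This aorta also had the highest normalized count of 5 members (*Vcam1*, *Selplg*, *Itgal*, *Itgam* and *Itgb2*) and the lowest of *Icam2*. Fold changes and calls without it are given below for the members and the called ratios, and for the lists where a call changed.

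Of the 10 adhesion genes, *Itgal* and *Itgb2*, the 2 subunits of LFA-1, rose with age, and *Icam2* and *Itga4* fell. The calls are at an adjusted p below 0.05 in edgeR's quasi-likelihood F test over all tested genes. Thus 2 members were called higher, beside 6.48% of all tested genes, and 2 were called lower, beside 4.99%. In both directions together, 4 of 10 members were called and 11.5% of all genes. At an unadjusted p below 0.05, the counts were 8 of 10 members and 26.7% of all genes. The 5 old aortae did not overlap the 5 young in 2 members, *Itgb2* and *Itga4*, and in 9.92% of all genes, 5.37% higher and 4.55% lower. DESeq2 called 8 members, *Vcam1*, *Selplg*, *Itgal*, *Itgam* and *Itgb2* higher and *Icam2*, *Selp* and *Itga4* lower, where 8.37% of all genes were called higher, 7.4% lower and 15.8% in all. Without old replicate 3, edgeR called 1 member higher (*Itgb2*, beside 5.02% of all genes) and 1 lower (*Itga4*, beside 3.92%), of 8.94% called in all. Levels below are normalized counts, which are reads divided by the size factor of the library, with mean ± SD over 5 mice, and a fold change is old over young on the log2 scale with its standard error (SE).

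**Figure D1:**
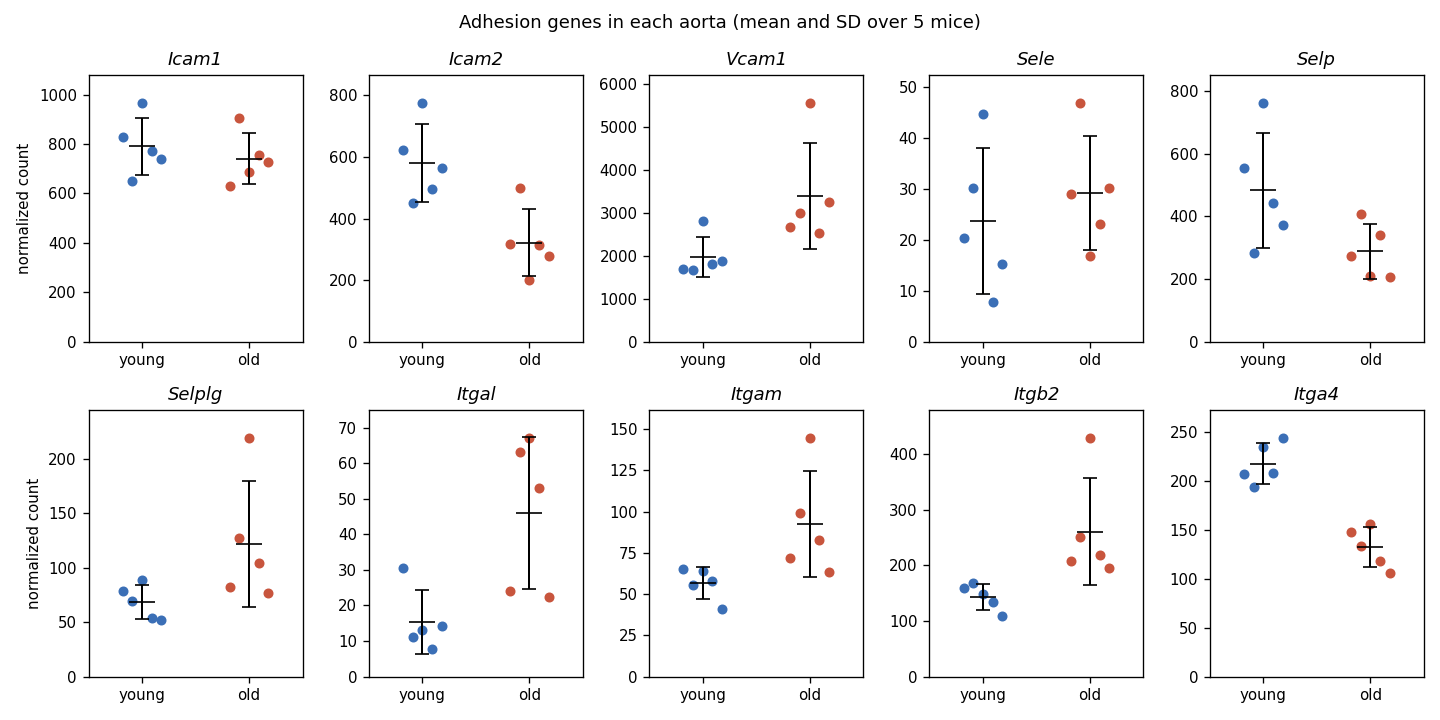
Normalized counts (vertical axes, each from 0) of the 10 adhesion genes in 5 young (blue) and 5 old (red) aortae, 1 point per mouse, with horizontal bars at the mean and vertical bars for the SD. The groups are apart for *Itgb2* and *Itga4*, overlap for the other 8 genes, and 1 old aorta reaches 5555 for *Vcam1*.

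**Figure D2:**
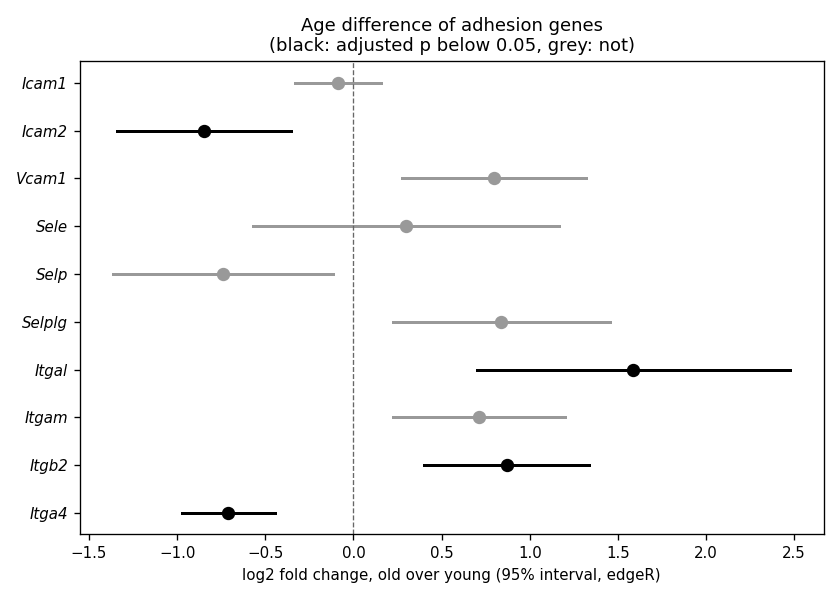
Log2 fold change of each adhesion gene, old over young, with its 95% interval from edgeR. Black marks the 4 genes called at an adjusted p below 0.05, *Itgal* and *Itgb2* to the right of 0 and *Icam2* and *Itga4* to the left.

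*Icam1*, *Icam2* and *Vcam1* moved in different ways. *Icam1* encodes the ligand that cytokines raise on endothelium and other cells of the wall. Its normalized counts in young replicates 1 to 5 were 827.0, 651.1, 964.1, 770.6 and 739.8, and those in old replicates 1 to 5 were 630.6, 904.4, 685.0, 755.8 and 726.3. The ranges of the 2 ages lie almost on top of each other. The mean was 790.5 ± 116.1 at the young and 740.4 ± 103.0 at the old age, with a fold change of -0.09 (SE 0.11, edgeR adjusted p = 0.675). The 95% interval from -0.33 to 0.16 limits how far *Icam1* differed in either direction, and without old replicate 3 the fold change was -0.06 (adjusted p = 0.806).

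*Icam2* encodes the resting endothelial ligand of LFA-1. Normalized counts of 622.6, 448.8, 773.7, 494.4 and 565.6 were measured in young replicates 1 to 5, and 316.8, 498.0, 200.4, 315.3 and 279.0 in old replicates 1 to 5. In 4 of the 5 old aortae *Icam2* lay below the lowest young value, and old replicate 2 lay between the young values. The mean of 581.0 ± 126.6 fell to 321.9 ± 109.2, a fold change of -0.85 (SE 0.22, edgeR adjusted p = 0.0340). The call is close to the threshold. It was lost on omission of any 1 mouse other than young replicate 2 or old replicate 2, with an adjusted p of 0.0042 to 0.0810 over the 10 omissions and a fold change of -0.72 without old replicate 3 (adjusted p = 0.0575).

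*Vcam1* encodes the ligand of VLA-4, which endothelium shows after activation and which smooth muscle cells and fibroblasts can also make. Its normalized counts were 1683.7, 1681.5, 2803.7, 1807.7 and 1876.0 in young replicates 1 to 5, and 2683.2, 3005.4, 5554.8, 2529.8 and 3245.3 in old replicates 1 to 5. In all 5 old aortae *Vcam1* was above 4 of the young ones, with young replicate 3 reaching into the old range. The means were 1971 ± 473 and 3404 ± 1234, and the fold change was 0.80 (SE 0.23, 95% interval 0.27 to 1.32). This did not pass in edgeR (adjusted p = 0.0565), and it passed in DESeq2 (adjusted p = 0.0169) and limma-voom (adjusted p = 0.0266, where 6.53% of all genes were called higher, 5.07% lower and 11.6% in all). Without old replicate 3, the highest sample, the fold change was 0.55 (edgeR adjusted p = 0.0546), and *Vcam1* passed without young replicate 3 (adjusted p = 0.0238) or old replicate 4 (0.0472).

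Neither selectin nor their ligand passed the test in edgeR. *Sele* encodes E-selectin, which endothelium makes anew after activation by cytokines, and it had few reads, 8 to 45 per library. Normalized counts were 20.4, 30.2, 44.9, 7.7 and 15.4 in young and 29.0, 46.9, 16.8, 23.1 and 30.1 in old replicates 1 to 5. The young aortae alone spanned nearly the whole range. The fold change of 0.30 (SE 0.40, edgeR adjusted p = 0.693) had an interval from -0.57 to 1.17, which is too wide at this depth and spread to tell a rise from a fall. It was 0.44 without old replicate 3 (adjusted p = 0.553).

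*Selp* encodes P-selectin, which endothelial cells and platelets keep in storage granules for rapid release. Its normalized counts in young replicates 1 to 5 were 555.1, 283.8, 760.7, 443.2 and 371.9, and those in old replicates 1 to 5 were 274.8, 408.6, 210.6, 341.3 and 207.1. In 3 old aortae *Selp* lay below every young one, and the groups overlapped. The mean was 483.0 ± 184.4 at the young and 288.5 ± 86.7 at the old age, with a fold change of -0.74 (SE 0.28, edgeR adjusted p = 0.123). With DESeq2 the decrease passed (adjusted p = 0.0251), and in edgeR without old replicate 3 the fold change was -0.65 (adjusted p = 0.234).

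*Selplg* encodes PSGL-1, the selectin ligand that leukocytes carry. In young replicates 1 to 5 the normalized counts were 78.7, 69.4, 88.7, 54.1 and 52.3, and in old replicates 1 to 5 they were 81.9, 127.5, 219.0, 104.1 and 76.8. Old replicate 3 was the highest, and 2 old aortae lay within the young range. The means were 68.6 ± 15.7 and 121.9 ± 57.9, with a fold change of 0.84 (SE 0.28, edgeR adjusted p = 0.0777). It was 0.51 without old replicate 3 (adjusted p = 0.151), and DESeq2 called it on all mice (adjusted p = 0.0273).

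The 3 subunits of the beta2 integrins had higher means in old aortae, 2 of which passed the test, and *Itga4* fell. *Itgb2* encodes the beta subunit that LFA-1 and Mac-1 share. Its normalized counts were 158.5, 168.0, 148.6, 133.3 and 108.6 in young and 207.9, 251.7, 428.7, 218.8 and 194.4 in old replicates 1 to 5. Each old aorta was above each young one. The mean rose from 143.4 ± 23.3 to 260.3 ± 96.5, a fold change of 0.87 (SE 0.21, edgeR adjusted p = 0.0216), and without old replicate 3 the fold change was 0.61 (adjusted p = 0.0157). Omission of young replicate 4 or 5 ended the call, with an adjusted p of 0.0582 and 0.0536.

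*Itgal* encodes the alpha subunit of LFA-1 and is found on lymphocytes and most other leukocytes. It had 30.7, 11.1, 12.96, 7.7 and 14.3 normalized counts in young replicates 1 to 5 and 24.0, 63.2, 67.1, 53.0 and 22.4 in old replicates 1 to 5. In 3 old aortae (2, 3 and 4) *Itgal* was more than 1.5 times above every young one, and old replicates 1 and 5 lay below young replicate 1. The mean rose from 15.4 ± 8.91 to 45.9 ± 21.4, 2.99 times, with a fold change of 1.59 on the log2 scale (SE 0.41, edgeR adjusted p = 0.0252). At these low counts the call was lost on omission of young replicate 2, 3, 4 or 5 or of old replicate 2, 3 or 4 (adjusted p = 0.0537 to 0.0671), and the fold change stayed between 1.40 and 1.99 over the 10 omissions.

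*Itgam* encodes the alpha subunit of Mac-1, a marker of monocytes, macrophages and granulocytes. Its normalized counts were 65.4, 55.3, 63.8, 57.9 and 41.0 in young and 72.0, 99.2, 144.5, 82.9 and 63.2 in old replicates 1 to 5. Old replicate 5 alone of the old aortae lay within the young range. The means were 56.7 ± 9.71 and 92.3 ± 32.1, with a fold change of 0.71 (SE 0.23, edgeR adjusted p = 0.0591), and 0.49 without old replicate 3 (adjusted p = 0.133). DESeq2 called the increase (adjusted p = 0.0266), and edgeR called it without young replicate 1 (0.0494) or old replicate 5 (0.0392).

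*Itga4* encodes the alpha subunit of VLA-4, the receptor for VCAM-1 on lymphocytes and monocytes, and it is also found outside the blood lineage. In young replicates 1 to 5 the normalized counts were 207.5, 194.2, 235.3, 208.6 and 243.9, and in old replicates 1 to 5 they were 147.9, 134.0, 155.6, 118.6 and 106.0. Each old aorta was below each young one, and the spread was the smallest among the members in young aortae (9.55% of the mean). The mean fell from 217.9 ± 20.8 to 132.4 ± 20.4, a fold change of -0.71 (SE 0.12, 95% interval -0.97 to -0.45, edgeR adjusted p = 0.00252). The call held in all 18 alternatives, with a fold change of -0.78 to -0.64 on omission of 1 mouse.

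**Figure D3:**
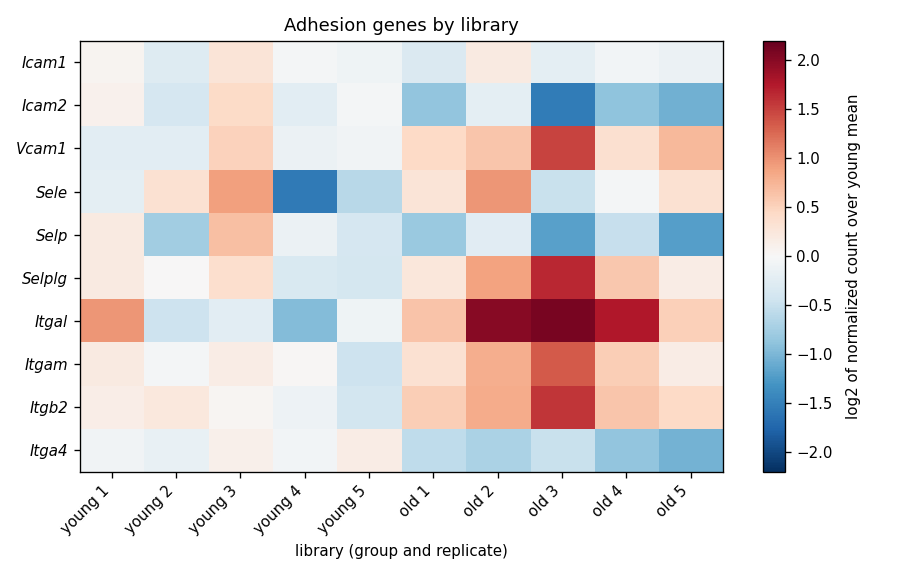
Log2 of the normalized count of each adhesion gene (rows) in each of the 10 aortae (columns) over the mean of the young group, red for higher and blue for lower. Old replicate 3 shows the deepest red for *Vcam1*, *Selplg*, *Itgal*, *Itgam* and *Itgb2* and the deepest blue for *Icam2*, and *Itga4* is blue in all 5 old aortae.

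Set on one scale per kilobase of exonic sequence, *Icam1*, *Icam2* and *Vcam1* had higher means than the 4 integrin subunits at both ages. The length takes all annotated exons of a gene together, from 1904 bases for *Icam2* to 13978 for *Itga4*. The order therefore depends on the annotation. In young aortae *Icam2* had 305 ± 66.5 normalized counts per kilobase, followed by *Vcam1* with 222 ± 53.3, *Icam1* with 181 ± 26.6 and *Selp* with 109 ± 41.8. *Itgb2* (47.0 ± 7.64), *Selplg* (16.1 ± 3.68), *Itga4* (15.6 ± 1.49), *Itgam* (11.3 ± 1.93), *Sele* (8.15 ± 4.93) and *Itgal* (2.34 ± 1.36) came next. In this order *Vcam1* and *Icam1*, *Selplg* and *Itga4*, and *Itgam* and *Sele* lie within 1 SD of each other, by the larger SD of the pair. In old aortae *Vcam1* led with 384 ± 139, and *Icam1* (170 ± 23.6) and *Icam2* (169 ± 57.3) were level. *Itgb2* (85.3 ± 31.6) was above *Selp* (65.4 ± 19.7) by less than its SD. *Selplg* (28.5 ± 13.6), *Itgam* (18.4 ± 6.39, an uncertain level), *Sele* (10.0 ± 3.85), *Itga4* (9.47 ± 1.46) and *Itgal* (6.99 ± 3.26) came next. By the same rule, *Selplg* and *Itgam*, *Sele* and *Itga4*, and *Itga4* and *Itgal* lie within 1 SD of each other. The beta subunit exceeded the sum of its alpha partners *Itgal* and *Itgam* at both ages on this scale. The level of *Itgam* is uncertain at both ages, and the sum leaves out *Itgax*, a further alpha partner.

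Ratios within a library do not depend on how libraries are scaled. They set a member beside an endothelial or leukocyte marker, beside its partner or beside a related member. They were compared between ages for 16 pairs with exact two-sided permutation tests over the 10 mice and adjusted over the 16. *Cdh5*, which encodes the endothelial junction protein VE-cadherin, and *Ptprc*, which encodes the leukocyte protein CD45, served as denominators. Their own normalized counts were 2027 ± 497 in young and 1328 ± 392 in old aortae for *Cdh5* (fold change -0.60, edgeR adjusted p = 0.108), and 143.8 ± 43.8 and 246.2 ± 92.3 for *Ptprc* (0.78, adjusted p = 0.0802). Of the 16 ratios, 6 passed, each with all 5 old aortae outside the young range (exact permutation p = 0.00794, the smallest that 252 assignments can give, adjusted p = 0.0212). No ratio passed after adjustment on omission of young replicate 3, 4 or 5, and 6 to 8 passed on omission of any other mouse. Without young replicate 3, 4 or 5, these 6 ratios had an adjusted p of 0.0508 to 0.0635 (exact permutation tests). Their differences kept their direction. A ratio to *Cdh5* or *Ptprc* is not a level per cell, since other cells can also make *Vcam1* and *Itga4*. With each age mean removed, *Vcam1* and *Cdh5* correlated at r = -0.19, and at 0.30 without old replicate 3. For *Itga4* and *Ptprc* r was 0.55, and 0.33 without that mouse. Over all mice, the other members set beside *Cdh5* had r = 0.53 to 0.93 with it. The other members set beside *Ptprc* had r = 0.71 to 0.91 with that gene. Without old replicate 3 these ranges were 0.44 to 0.93 and 0.56 to 0.84.

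Relative to *Cdh5*, *Vcam1* had the widest difference of the 5 members set beside it. Its log2 ratio was -0.60, 0.09, 0.13, -0.00308 and 0.22 in young replicates 1 to 5 and 1.08, 0.63, 2.55, 0.83 and 1.62 in old replicates 1 to 5, a mean difference of 1.38, and of 1.08 without old replicate 3. *Icam1*, whose own level did not pass, was higher relative to *Cdh5* in old aortae, with a log2 ratio of -1.34 ± 0.19 in young and -0.81 ± 0.29 in old mice (difference 0.53, and 0.45 without old replicate 3). In the same direction, the log2 ratio of *Icam1* to *Icam2* rose by 0.79 and that of *Vcam1* to *Icam1* by 0.85, and by 0.66 and 0.63 without old replicate 3. For *Icam2* to *Cdh5* the difference was -0.26 (exact permutation p = 0.0397, adjusted p = 0.0705), and for *Selp* to *Cdh5* it was -0.09 (p = 0.540, adjusted p = 0.617). The ratio of *Sele* to *Cdh5* (difference 1.06) and that of *Selp* to *Sele* (-1.15) rest on the low counts of *Sele* and did not pass either (adjusted p = 0.0705 for both, exact permutation tests).

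Of the members set beside *Ptprc*, *Itga4* alone passed. The log2 ratio of *Itga4* to *Ptprc* was 0.12, 0.77, 0.29, 0.93 and 1.11 in young replicates 1 to 5 and -0.44, -1.04, -1.34, -0.64 and -0.71 in old replicates 1 to 5. The sign differs between all young and all old aortae, with a mean difference of -1.48, and of -1.35 without old replicate 3. Relative to *Itgb1*, its own partner in VLA-4, *Itga4* fell as well, from a log2 ratio of -7.85 ± 0.15 to -8.48 ± 0.22 (difference -0.64, and -0.67 without old replicate 3), and *Itgb1* itself had a fold change of -0.08 (edgeR adjusted p = 0.572). The ratios to *Ptprc* differed by -0.01 for *Selplg* (exact permutation p = 0.921), by -0.10 for *Itgam* (p = 0.516) and by 0.06 for *Itgb2* (p = 0.778). *Itgal* differed by 0.80 relative to *Ptprc* (exact permutation p = 0.0635, adjusted p = 0.102) and by 0.74 relative to *Itgb2* (p = 0.0873, adjusted p = 0.127), neither of which passed.

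**Figure D4:**
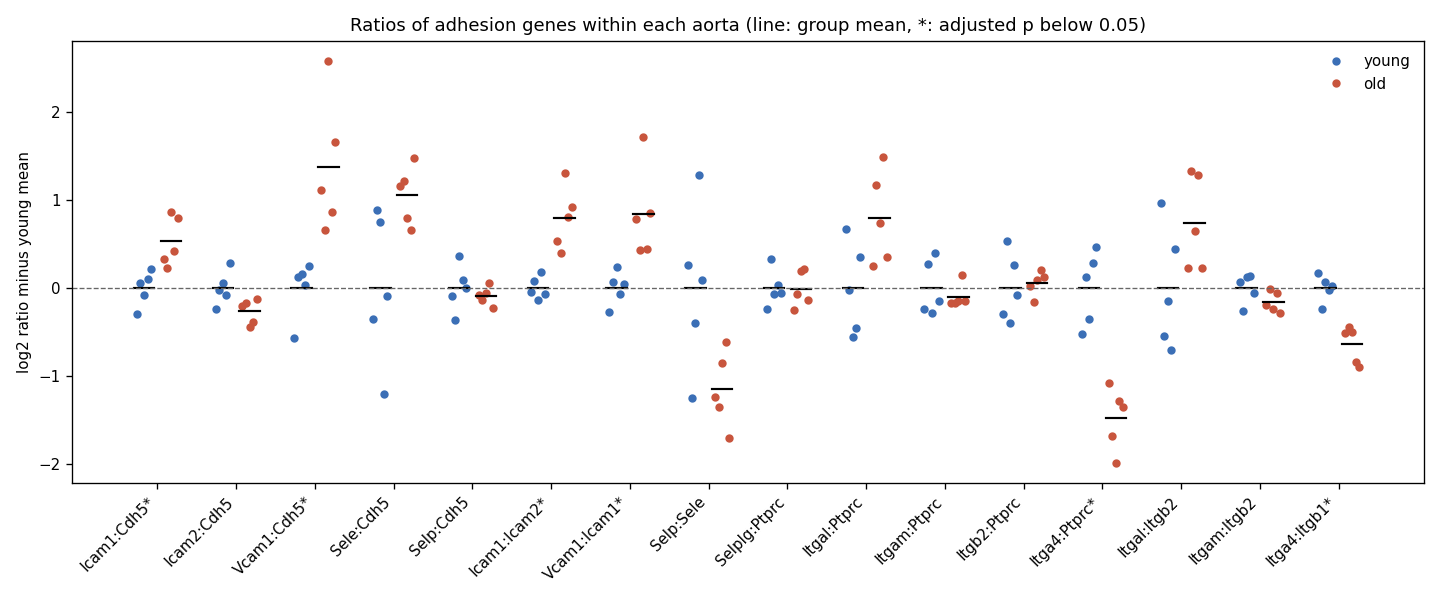
Log2 ratios of adhesion genes to a second gene within each aorta, shifted so that the young mean is 0, with 1 point per mouse (blue young, red old), a line at each group mean and a star at the 6 ratios with an adjusted p below 0.05. The old points lie above the young for *Icam1* and *Vcam1* over *Cdh5*, for *Icam1* over *Icam2* and for *Vcam1* over *Icam1*, and below them for *Itga4* over *Ptprc* and over *Itgb1*.

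The other genes of the adhesion pathway were counted in 5 lists, to be read beside the 11.5% of all tested genes that were called, 6.48% higher and 4.99% lower. No list was tested as a whole. None of 11 tested junction and surface proteins of the endothelium was called higher, and 1 was called lower, *Alcam* (fold change -0.58, edgeR adjusted p = 0.0124), which encodes a ligand of the T cell protein CD6. All 11 fold changes were below 0 with a median of -0.31, where the median of all tested genes was 0.003. The list was drawn up by name, and whole-aorta RNA does not show which cells of the wall made these transcripts. *Pecam1*, which encodes the junction protein CD31, had a fold change of -0.72 (adjusted p = 0.0554). *Madcam1*, the gut ligand of the alpha4 integrins, had at most 1 read. Without old replicate 3, *Alcam* and *Cd34* were called lower.

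Among other leukocyte integrin subunits, 1 of 4 tested was called, *Itgb7*, which encodes the second partner of the alpha4 subunit. Its normalized counts rose from 8.05 to 28.9 in young to 39.0 to 99.7 in old aortae (fold change 1.46, edgeR adjusted p = 0.0172), while *Itga4* fell. *Itgax*, the alpha subunit of a further beta2 integrin, had a fold change of 0.91 (adjusted p = 0.186), *Itgad* was listed at 0 in all libraries, and *Itgae* had too few reads to be tested. Of 13 tested adaptors and kinases of integrin activation, 3 were called and all 3 were higher, with a median of 0.34 over the list. *Vav1*, an exchange factor of blood cells, had a fold change of 1.11 (adjusted p = 0.0124), *Fgr*, a myeloid Src-family kinase, one of 1.19 (adjusted p = 0.0158), and *Fermt3*, which encodes the kindlin-3 that beta2 integrins need for activation, one of 0.54 (adjusted p = 0.0283). Without old replicate 3, *Itgb7* (1.13, adjusted p = 0.0384), *Vav1* and *Fgr* were called and *Fermt3* was not (0.40, adjusted p = 0.0554).

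Of 11 tested selectin ligands and enzymes that modify them, 2 were called and both were lower. *Gcnt1*, whose enzyme builds the branched core of the sugars that selectins bind, had a fold change of -1.04 (edgeR adjusted p = 0.0196), and *Tpst1*, whose enzyme sulfates tyrosines of PSGL-1, one of -0.26 (adjusted p = 0.0195). The median of this list was -0.10. Without old replicate 3, *Gcnt1* was not called (-0.98, adjusted p = 0.0544), and *Tpst1*, *Cd44* and *B4galt1* were called lower. In the list of cytokines, receptors and NF-kappaB genes, 1 of 10 tested genes was called, *Tnfrsf1b*, which encodes a TNF receptor (0.53, adjusted p = 0.00535), with a median of 0.12. The cytokines *Tnf*, *Il1b* and *Il6* had too few reads to be tested.

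Markers of endothelial cells, leukocytes and platelets were counted in the same libraries. Of 12 endothelial markers, 1 was called lower (*Tek*) and none higher, with a median fold change of -0.44, and *Cdh5*, *Pecam1* and *Kdr* had fold changes of -0.60, -0.72 and -0.04. Their summed normalized counts were 27484 to 43506 in young and 17243 to 31763 in old aortae. All 6 pan-leukocyte markers had positive fold changes, 2 of them called, with sums of 816 to 1297 in young and 1310 to 3098 in old aortae. Of 12 macrophage markers, 6 were called higher and none lower, with sums of 10204 to 13049 and 13212 to 25948. Among the T cell markers 4 of 8 had enough reads, and 2 of these were called higher, with sums of 28.2 to 81.8 in young and 74.9 to 214 in old aortae. The B cell markers had 4 of 6 tested and none called, with a sum of 507 in old replicate 3 and of at most 134 in any other library. Of 8 neutrophil markers only *Csf3r* was tested, and it was higher, while *Ly6g* had at most 1 read. Of the 6 platelet markers 4 were tested and 1 was called, which was higher. Without old replicate 3, no endothelial or platelet marker was called, and the counts of calls in the other lists were the same. How far these markers account for the differences of the adhesion genes was not tested.

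The tissue itself was as labelled by its defining genes. Smooth muscle markers summed to 702245 to 916825 normalized counts per library, with none of 6 called and a median of -0.11. Of 6 fibroblast markers 1 was called higher and 2 lower. None of 6 adipocyte markers was called, with a median of -1.02, sums of 6266 to 24188 in young and 2855 to 8806 in old aortae, and their part in the results was not tested.

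**Figure D5:**
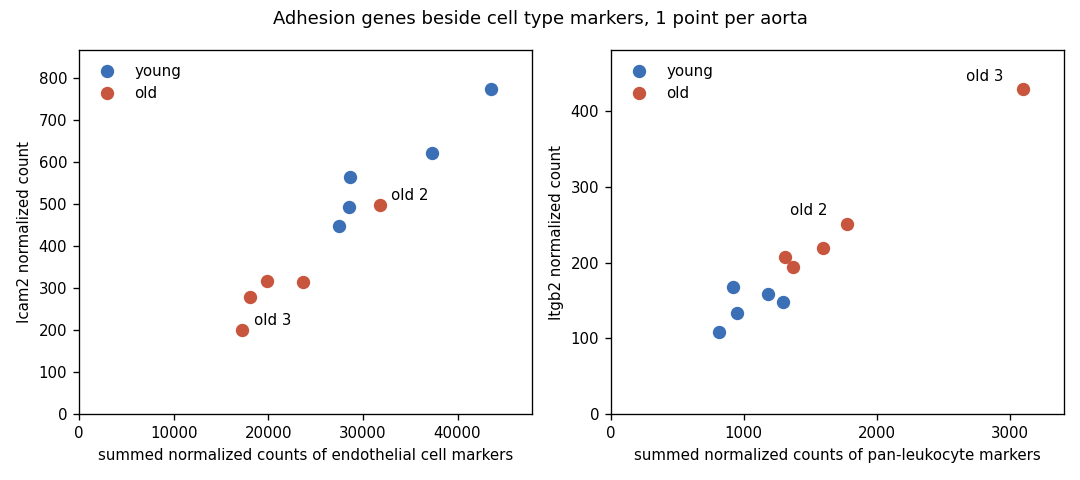
Normalized counts of *Icam2* against the summed counts of 12 endothelial markers (left) and of *Itgb2* against those of 6 pan-leukocyte markers (right), 1 point per aorta, blue young and red old. *Icam2* is low where the endothelial sum is low, with old replicate 3 lowest on both axes. On the right, old replicate 3 is highest on both axes. Among young aortae *Itgb2* does not follow the leukocyte sum. Young replicate 2 has the highest *Itgb2* (168) at a sum of 919, and young replicate 3 the highest sum (1297) at an *Itgb2* of 149.

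To see which genes shared the pattern of a member from mouse to mouse, the correlation of log2 levels over the 10 mice was computed after removal of each age mean. These values are descriptions over points that share library, scaling and cell makeup, and no test was made. The genes most like *Itgb2* were *Lat2* (r = 0.96), *Ptafr* (0.96), *C1qc* (0.95), *Lyz2* (0.95) and *P2rx4* (0.95). *C1qc* and *Lyz2* encode a complement subunit and the lysozyme of macrophages, and r for *Lyz2* was 0.84 without old replicate 3. For *Icam2* they were *Myrip* (0.98), *Zfp958* (0.97), *Esam* (0.96), *Pecam1* (0.96) and *Nos3* (0.96), of which *Esam*, *Pecam1* and *Nos3* are endothelial genes. *Itgal* was most like *Slc15a2* (0.96), *Efna1* (0.93), *Fam219a* (0.93), *Crip2* (0.92) and *Arhgap32* (0.92), which hold no pan-leukocyte marker. *Vcam1* was most like *Spp1* (0.95), which encodes osteopontin, *Ap4s1* (0.94), *Chaf1b* (0.94), *Aga* (0.93) and *Timp1* (0.93), with r = 0.90 for *Spp1* without old replicate 3.

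Within the set itself, *Selplg*, *Itgam* and *Itgb2* followed each other across mice of 1 age, with r = 0.94 for *Selplg* and *Itgam*, 0.92 for *Selplg* and *Itgb2* and 0.93 for *Itgam* and *Itgb2*, and 0.86, 0.80 and 0.84 without old replicate 3. *Icam2* and *Selp* also followed each other (r = 0.85, and 0.87 without this mouse), as did *Icam1* and *Selp* (0.87 and 0.86). How far these genes stood apart from the first 3 depended on old replicate 3. *Selplg* had r = -0.09 with *Icam2*, 0.20 with *Selp* and 0.30 with *Icam1* over all mice. Without old replicate 3 these were 0.76, 0.74 and 0.71, and those of *Itgb2* were 0.33, 0.33 and 0.28. *Vcam1* and *Icam1* had r = 0.23 over all mice and 0.63 without old replicate 3, so that the value rests on 1 aorta. *Itga4* and *Itgb2* had r = 0.34, and -0.20 without that aorta.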

How the data were processed

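RNA-seq libraries (TruSeq Stranded mRNA, poly(A)) of 5 young and 5 old aortae were used, 1 per mouse. The authors removed reads under 35 bases with fastp 0.20.0, aligned the rest to GRCm38 with STAR 2.7.0f and counted them per gene with featureCounts (Subread 1.6.4). The deposited values are these raw counts, without normalization. The strand setting and the treatment of reads shared by overlapping genes are not given in the sources used here. The members and gene lists were chosen with earlier results of these data known. Named genes are the members, the called genes of each pathway list (up to the 4 smallest p), the ratio denominators, up to 3 markers per list in list order and the 5 genes most correlated with *Itgb2*, *Itgal*, *Icam2* and *Vcam1*. *Tek*, *Csf3r*, *Cd34*, *Cd44*, *B4galt1*, *Ly6g*, *Pecam1* and *Itgax* beside their counts, and the genes named as untested or listed at 0, were chosen after their values were seen.

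Counts were tested in R 4.3.3 with edgeR 4.0.16 (filterByExpr, TMM, robust quasi-likelihood F test, Benjamini-Hochberg adjustment), with a call at an adjusted p below 0.05. Levels are counts over DESeq2 1.42.0 size factors. Ratios had 0.5 added to each normalized count and were tested by exact permutation. Lengths and positions come from GENCODE M21, while the authors used another release on the same build. The tests were checked on simulated counts. Alternatives were DESeq2, limma-voom (limma 3.58.1), other scalings and filters, a replicate block and the omission of each mouse. The lists without old replicate 3 were added after the data were seen. The labels number mice 1 to 5 in both ages without naming a shared cage or day, and give no batch. Library totals ranged from 19640401 to 22886153. Between mice of 1 age, the chi-square of the counts was 8.06 to 58.8 times what counting error gives (over its degrees of freedom, 20 pairs).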

Additional observations from a re-analysis of the deposited data

Results flagged for a closer look

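In 6 of 52 groups of 5 aortae examined, 1 sample lay farther from the others than Dixon's 95% value (0.71) allows. Independent normal samples would give about 1 in 20 groups. The 52 groups share mice, members and denominators, so that their count cannot be set against that rate. *Vcam1* had 2804 normalized counts in young replicate 3, with the next young aorta at 1876, and 5555 in old replicate 3, with the next old aorta at 3245. *Itgb2* had 429 in old replicate 3, with the next at 252. *Itgal* had 30.7 in young replicate 1, with the next at 14.3. The log2 ratio of *Vcam1* to *Cdh5* was -0.60 in young replicate 1, below the next at -0.00308, and that of *Itgam* to *Ptprc* was -1.15 in old replicate 4, above the next at -1.45.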

How the results depend on the processing

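Over 18 alternatives the 10 members kept the direction of their fold changes in each case, while 21 of 180 values lost and 12 gained significance. Members called higher numbered 5 with DESeq2 (8.37% of all genes) and 0 to 3 on omission of 1 mouse (4.46 to 8.33% of all genes). They numbered 0 without young replicate 4 (4.46% of all genes) or 5 (4.8%). Members called lower numbered 3 with DESeq2 (7.4% of all genes), 1 with no low-count filter (2.32%) and 1 with the replicate block (3.2%). On omission of 1 mouse they numbered 1 to 2 (3.21 to 7.73% of all genes). With no filter *Icam2* (adjusted p = 0.104) and *Itgb2* (0.0523) were not called and *Itgam* was (0.0292). The labels do not say that the replicate numbers pair the mice. Same-numbered libraries correlated at -0.290 to 0.125, and 4 libraries, those of replicates 3 and 5, correlated best with their own number. These values do not settle whether the numbers pair the mice. With the replicate block 1261 genes were called in place of 1676, *Icam2* (0.136) and *Itgal* (0.0848) were not called, and *Vcam1* (0.000552) and *Selplg* (0.0352) were. For the ratios, a block with exact sign-flip tests over 5 pairs called 0, since it cannot go below p = 0.0625. Omission of 1 mouse gave 1132 to 2367 genes and 0 to 8 ratios, with 0 without young replicate 3, 4 or 5. With *Pecam1* and *Laptm5* as denominators 7 ratios were called, and also with summed markers, which were chosen after seeing the data. The added ratio was not the same in exact permutation tests. With *Pecam1* it was that of *Sele* (adjusted p = 0.0363), where *Icam2* differed by -0.13 (adjusted p = 0.150). With summed endothelial markers it was that of *Icam2* (difference -0.29, adjusted p = 0.0181). The ratios nearest 0 changed sign. *Selp* to *Cdh5* was 0.0453 with *Pecam1* and 0.00158 without young replicate 3, with a range of -0.18 to 0.00158 over the omissions. *Selplg* to *Ptprc* was 0.061 with *Laptm5*, 0.0738 without young replicate 2, and 0.0501, 0.00546 and 0.0218 without old replicate 1, 2 and 5, from -0.068 to 0.0738 over the omissions. *Itgam* to *Ptprc* was 0.00087 without young replicate 4 and as low as -0.17, and *Itgb2* to *Ptprc* was -0.0186 and -0.0441 without young replicate 1 and 3 and as high as 0.19. The cause was not tested. Depth limits *Sele* (8 to 45 reads) and *Itgal* most, and nothing in whole-aorta RNA tells which cells carry a transcript.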
